A study of Mus musculus with 24 samples.

Results

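The mouse family of medium-chain acyl-CoA synthetases comprised 5 genes, Acsm1 to Acsm5, which were selected by symbol from the 55401 genes of the deposited count table, and all 5 were found once each. Left ventricle, skeletal muscle and kidney came from 8 C57BL6/J mice, read from the 8 identifiers that the sample titles share across tissues. The mice were 16.5 or 86 weeks old, with 2 females and 2 males at each age, and no genetic change or treatment is named in the labels. Each tissue therefore gave 8 libraries of ribosome-depleted total RNA, 24 in all, with total counts of 52602585 to 103797551 per library. Neither the muscle nor the part of the kidney that was sampled is named. The family was proposed with earlier results of these data known, and the choice rested on the comparisons of tissues and ages, so values for those comparisons are given as descriptions without a test. Sex and its interactions were not named in that choice and were tested, although those tests are not independent of what was known of the data.

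Acsm enzymes lie in the mitochondrial matrix, where they spend ATP to join medium-chain fatty acids, and carboxylic acids of foreign or microbial origin such as benzoate, to coenzyme A. The activated acid can then enter beta-oxidation or be passed to glycine N-acyltransferase and excreted in urine as a glycine conjugate. Liver and the kidney proximal tubule, a segment that lives largely on fatty acid oxidation, are the sites for which the family is known. Acsm1 is the butyryl-CoA synthetase, Acsm2 is the mouse counterpart of the human benzoate-activating ACSM2 genes, Acsm3 was first described as the SA gene in the kidneys of hypertensive rats, and Acsm4 was described in olfactory epithelium. Acsm5 is the least characterised of them.

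Marker genes matched the labelled tissues. The 6 cardiomyocyte markers summed to 46742 to 65155 CPM in left ventricle and to at most 557 CPM elsewhere, the 6 fast myofibre markers to 94997 to 130513 CPM in skeletal muscle and to at most 46.8 CPM elsewhere, and the 14 proximal tubule markers to 15144 to 20895 CPM in kidney and to at most 212 CPM elsewhere, where CPM are depth-scaled counts, set to the TMM-normalised library size within the tissue. Of the genes listed for a known male excess in kidney, 8 of 8 were higher in males. Of those listed for a female excess, 6 of 6 were higher in females. These lists were chosen with earlier results of these data known, so they give no independent check of the sex labels. Libraries of a group differed by more than sampling noise in every pair, with a chi-square of at least 12.1 per gene. The labels do not say whether mice shared a litter or cage.

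The 5 genes formed one cluster on the + strand of chromosome 7 (GRCm38), spanning 268.1 kb from the start of Acsm5 to the end of Acsm3. In genomic order, Acsm5 lies at chr7:119519463-119545551, Acsm2 at chr7:119554340-119600690, Acsm1 at chr7:119607026-119662515, Acsm4 at chr7:119690026-119714565 and Acsm3 at chr7:119760923-119787513. Their coding sequences were 64.5% to 68.7% identical in pairwise alignments, and no stretch of 31 bases was shared between the exons of any pair, so reads of that length or longer could be told apart. Exons of Acsm3 overlap those of Eri2, an exonuclease gene on the opposite strand, and 31% of the 75-base stretches of Acsm3 transcripts also lie in Eri2 exons. Acsm5 shares 0.923% of its 75-base stretches with Pdilt, its neighbour on the opposite strand. Whether the counting used the strand is not stated, so reads from the shared exons cannot be assigned to 1 gene with certainty.

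Upstream sequence is shown for Acsm2 and Acsm3, the pair with the largest male excess in kidney described below. The runs are the 250 bases before a transcript start that RefSeq (GRCm38.p6) gives, on the + strand, with matches to the motifs searched in capitals.
Acsm2, chr7:119554090-119554339: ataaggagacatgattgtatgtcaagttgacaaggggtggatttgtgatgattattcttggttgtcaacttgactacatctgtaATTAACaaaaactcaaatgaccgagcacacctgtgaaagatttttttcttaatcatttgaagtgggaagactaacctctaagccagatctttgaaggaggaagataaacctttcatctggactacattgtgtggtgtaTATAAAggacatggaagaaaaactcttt
Acsm3, chr7:119760673-119760922: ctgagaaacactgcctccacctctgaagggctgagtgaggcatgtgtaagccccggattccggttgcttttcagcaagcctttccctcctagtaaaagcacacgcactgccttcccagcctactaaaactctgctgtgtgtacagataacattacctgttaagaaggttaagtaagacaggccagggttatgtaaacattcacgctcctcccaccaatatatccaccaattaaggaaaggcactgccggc
Searches on both strands covered AGAACA, the core of androgen and glucocorticoid receptor elements. They also covered GTTAAT and the longer palindromic element of HNF1 that contains it. The motif of HNF4 was CAAAGTCCA. The core promoter motif searched was TATAAA. The Acsm2 window shown held 1 match to GTTAAT, which 6.43% of all 32851 RefSeq windows of this length hold. It also held 1 match to TATAAA, which 12.4% hold. RefSeq gives another start for Acsm2, and its window, chr7:119561458-119561707, held 0 matches to either. The Acsm3 window held none of the 5. AGAACA, present in 16.1% of windows, CAAAGTCCA, in 0.384%, and the longer HNF1 element, in 0.00913%, had 0 matches before any of the 6 RefSeq starts of the family. A match describes these letters only, and the absence of a match says nothing about binding of a factor.

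In kidney, 4 of the 5 genes differed between the sexes: Acsm2, Acsm3 and Acsm5 were higher in males and Acsm1 was higher in females. The test was edgeR's quasi-likelihood F-test with age as an additive term and Benjamini-Hochberg adjustment over 44572 genes, of which 7.58% passed at an adjusted p under 0.05. Among the 3396 genes with a kidney mean of at least 50 CPM the share was 25.5%. The 4 genes that passed were called without any 1 of the 8 mice and under every other alternative that gave a test. In tissue RNA, fewer cells of a type and less RNA per cell cannot be told apart.

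**Figure D1:**
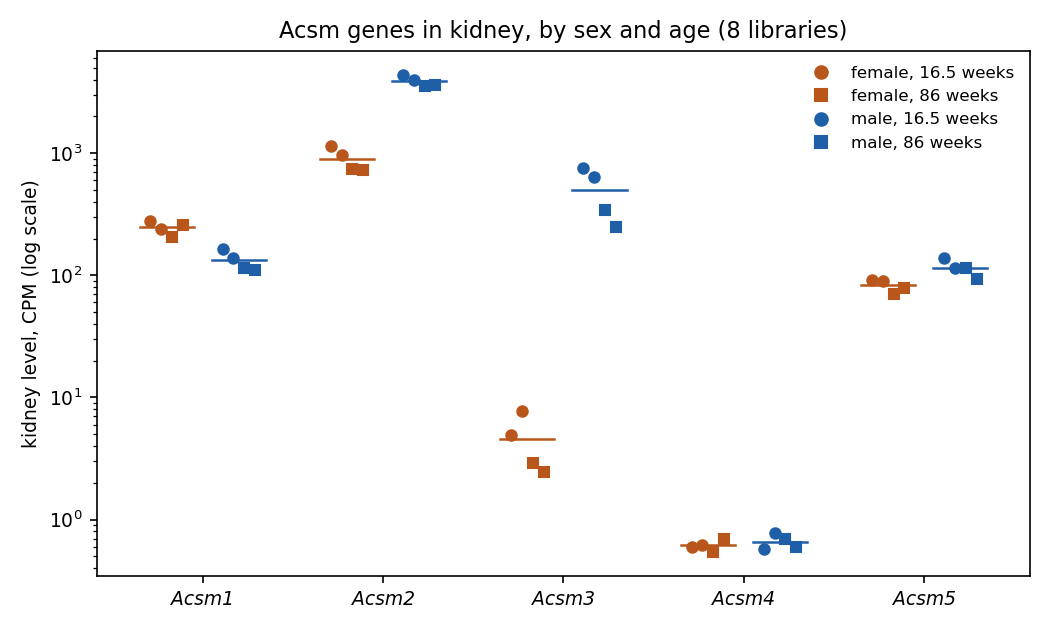
Kidney level of each Acsm gene in CPM on a log axis, with 1 point per library (8 libraries), coloured by sex and shaped by age, and bars at the mean of each sex. The points of the sexes do not overlap for Acsm1, Acsm2, Acsm3 and Acsm5, and Acsm4 lies between 0.546 and 0.774 CPM in all 8 libraries.

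Acsm3 had the widest sex difference of the family. The female kidneys held 4.94 and 7.82 CPM at 16.5 weeks and 2.93 and 2.45 CPM at 86 weeks. The male kidneys held 761 and 638 CPM at 16.5 weeks and 345.5 and 247 CPM at 86 weeks. Every male library thus stood far above every female one, at either age. The means were 4.54 ± 2.44 CPM in females and 498 ± 241.5 CPM in males (SD, n = 4 each), a 110-fold difference (log2 6.78 ± 0.18, SE; adjusted p = 1.13e-11). Its size ranked 125th among the 1680 genes that were higher in male kidney. Eri2, whose exons it shares in part, averaged 5.81 ± 0.98 CPM in the females and 7.89 ± 0.40 CPM in the males (SD, n = 4 each), about as much as the female level of Acsm3 and far less than the male one. The fitted Eri2 difference was 0.44 ± 0.13 (log2, SE; adjusted p = 0.064) and did not pass. The female level of Acsm3 may therefore hold Eri2 reads, whose share was not tested.

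Acsm2 had the highest CPM of the members. Its female kidneys held 1140 and 969.8 CPM at 16.5 weeks and 736 and 725 CPM at 86 weeks, and its male kidneys 4394, 3980, 3574 and 3643 CPM in the same order of ages. The lowest male library was well above the highest female one. The male mean of 3897 ± 376 CPM was 4.43 times the female mean of 893 ± 199.8 CPM in the fit (SD, n = 4 each; log2 2.15 ± 0.11, SE; adjusted p = 1.69e-08). Ordered by mean CPM among 21208 protein-coding genes, Acsm2 was 7th in male kidney and 41st in female kidney. By CPM per exon kilobase it was 30th and 145th, and Acsm1 was 165th in female kidney.

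Acsm1 went the other way. Female kidneys held 279, 242, 206 and 259.8 CPM, the first pair at 16.5 weeks, while male kidneys held 165, 139, 115 and 111 CPM. The female mean of 247 ± 31 CPM was 1.88 times the male mean of 133 ± 24.6 CPM (SD, n = 4 each; log2 -0.91 ± 0.11 for males minus females, SE; adjusted p = 6.58e-05). Acsm5 had the smallest difference that passed. Its female kidneys held 92.2, 89.95, 69.7 and 79.2 CPM, and its male kidneys 137, 115, 115 and 92.9 CPM, so that the lowest male library lay just above the highest female one. The means were 82.8 ± 10.4 and 115 ± 18.2 CPM (SD, n = 4 each), a 1.39-fold difference (log2 0.48 ± 0.10, SE; adjusted p = 0.00604). Acsm4 averaged 0.615 ± 0.060 CPM in the females and 0.661 ± 0.093 CPM in the males (SD, n = 4 each), and its difference of 0.10 ± 0.25 (log2, SE; adjusted p = 0.924) did not pass.

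Compared per exon length, the make-up of the family differed between the sexes. In females Acsm2 and Acsm1 made up near-equal shares of the family's CPM per exon kilobase, 46.6% ± 4.0 and 44.4% ± 3.9 (SD, n = 4), followed by Acsm5 with 8.53% ± 0.43 and Acsm3 with 0.352% ± 0.168. In males Acsm2 made up 73.7% ± 4.9 and Acsm3 13.5% ± 4.7, ahead of Acsm1 with 8.45% ± 0.24 and Acsm5 with 4.24% ± 0.38. The order of the first pair in females was within their spread, whereas the male shares of Acsm3 reached from 8.11% to 18.0% and those of Acsm1 from 8.28% to 8.80%, so that their ranges overlapped. The summed level of the family was 256 ± 40.4 CPM per exon kilobase in female and 717 ± 113 in male kidney. These shares restate the levels that were tested gene by gene and received no test of their own. They also depend on the lengths used, the merged exons of all annotated transcripts. These were 7.424 kb for Acsm2, 2.181 kb for Acsm1, 4.936 kb for Acsm3 and 3.799 kb for Acsm5. The coding sequences of Acsm2 and Acsm1 were near in length, at 1800 and 1719 bases. By CPM, Acsm2 was well above Acsm1 in females, at 893 and 247. Which transcripts were present was not tested.

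For Acsm3 the estimated sex difference was 6.78 ± 0.26 at 16.5 weeks and 6.78 ± 0.27 at 86 weeks (log2, SE). For Acsm2 it was 1.99 ± 0.17 and 2.30 ± 0.17, for Acsm1 -0.78 ± 0.15 and -1.04 ± 0.15, and for Acsm5 0.47 ± 0.15 and 0.48 ± 0.15. The interaction of age and sex was called for 0 of 5 members in each tissue, against 0.0247% of genes in kidney, 0.0157% in left ventricle and 0% in skeletal muscle. At an unadjusted p under 0.05 the count was also 0 of 5 in each tissue, and DESeq2 and limma-voom called 0 of 5. Over all genes in skeletal muscle, where edgeR called 0, 2891 had an unadjusted p under 0.05, DESeq2 called 64 and limma-voom 1. The largest kidney estimate was that of Acsm2, with an age change 0.32 ± 0.23 higher in males (log2, SE; edgeR adjusted p = 1), and that of Acsm3 was 0.00 ± 0.27, with a sign that changed among the alternatives. With 2 mice per age and sex, these errors leave room for interactions of moderate size.

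Markers of kidney segments differed between the sexes as well. The 14 proximal tubule markers summed to 15144 to 20895 CPM in females and 17554 to 19704 CPM in males, ranges that overlapped, with 4 genes higher in males, 2 higher in females and 8 not called. Set against the mean log2 CPM of those 14 markers in each library, the male minus female difference of the members was -1.04 for Acsm1, 2.01 for Acsm2, 6.65 for Acsm3 and 0.34 for Acsm5 (log2), and only for Acsm5 among these did the sexes then overlap. The 5 markers of the last proximal tubule segment, S3, summed to 335 to 514 CPM in females and 1002 to 1556 CPM in males without overlap. In males that sum was led by Slc7a13, with 1.49 ± 0.41 CPM in females and 629 ± 64.5 CPM in males (SD, n = 4 each). In females the largest was Slc22a7, at 213 CPM. Of the S3 markers 3 were higher in males and 2, Slc22a7 and Slc5a10, in females. Slc7a13 and Cyp7b1 are also in the list of genes with a known male excess. The 12 markers of the loop, distal tubule and collecting duct summed to 5610 to 6632 CPM in females and 4084 to 4972 CPM in males, and the 5 podocyte markers to 277 to 390 CPM and 206 to 293 CPM. Hepatocyte markers, 6 genes, summed to 50.3 to 66.4 CPM in females and 55.9 to 93.3 CPM in males. None of these markers was at 0 in all libraries. Their part in the sex differences of the Acsm genes was not tested. Adipocyte markers summed to 296 CPM in the female kidney of 16.5-week replicate 15 and to 26.2 to 82.2 CPM in the other 7 kidneys, and the same 4 members passed without that mouse.

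Several genes near the cluster also differed by sex in kidney. Of 16 neighbours within 100 kb that were in the count table, 15 were tested, 5 were higher in males and 0 in females. Of all 44572 genes tested, 1680 were higher in males and 1700 in females. Whether the neighbours exceed that share was not tested. Both antisense genes inside the span of Acsm1, whose exons do not overlap those of Acsm1, were higher in males, the opposite of Acsm1 itself. Gm45792 had 27.4 ± 3.6 CPM in females and 114 ± 9.2 CPM in males (SD, n = 4 each; log2 2.06 ± 0.11, SE; edgeR adjusted p = 1.66e-08). Gm19950 had 54.7 ± 6.0 and 128 ± 12.8 CPM (SD, n = 4 each; log2 1.22 ± 0.11, SE; edgeR adjusted p = 2.88e-06). The other 3 were the pseudogene Gm19963 (log2 1.68 ± 0.23), Dcun1d3, which acts in cullin neddylation (0.50 ± 0.11), and Thumpd1, a tRNA acetylation adaptor (0.30 ± 0.08). Umod, the uromodulin gene of the loop of Henle upstream of the cluster, had a difference of -0.40 ± 0.13 that did not pass (log2, SE; edgeR adjusted p = 0.0959), nor did Pdilt, at -0.02 ± 0.20. The sign of the sex difference thus changed 2 times along the 4 called members in genomic order, from Acsm2 to Acsm1 and from Acsm1 to Acsm3.

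**Figure D2:**
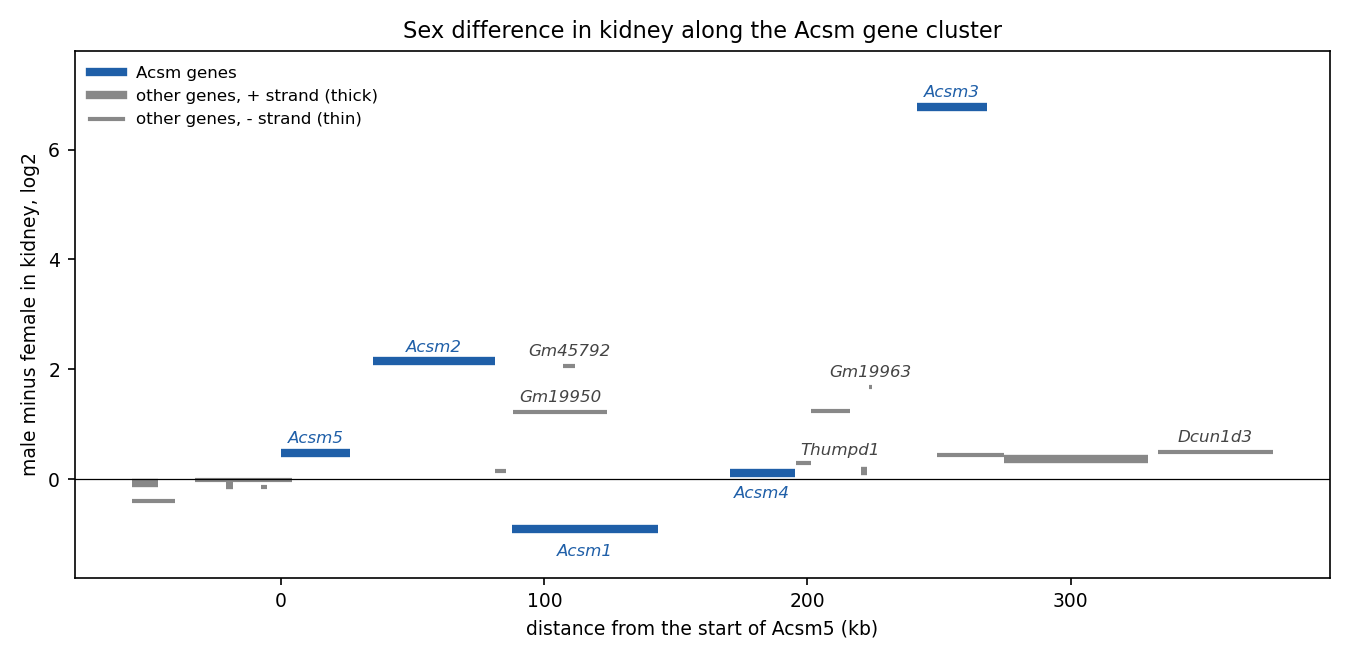
Male minus female log2 difference in kidney (vertical axis) for the tested genes of the Acsm cluster and its neighbours, drawn as bars over each gene's span in kb from the start of Acsm5 (horizontal axis). Blue bars are the Acsm genes, labels mark them and the neighbours that passed the test, and Acsm1 at -0.91 lies below 0 while Gm45792 and Gm19950 inside its span lie at 2.06 and 1.22.

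The enzymes around the family did not share one direction. Of 20 other acyl-CoA synthetases, 3 were higher in male kidney, 7 in female kidney and 10 did not pass, with a median difference of -0.05, beside 1680 higher in males and 1700 higher in females of all 44572 genes, whose median was -0.02 (log2, males minus females). Acsl1, the long-chain acyl-CoA synthetase, was higher in females (-1.56), as were the mitochondrial Acss1 (-0.91) and Acsf2 (-1.01), while Acss2, the cytosolic acetyl-CoA synthetase, was higher in males (1.10). Of 4 genes of glycine conjugation 2 were higher in males, 0 in females and 2 did not pass. Glyat, the glycine N-acyltransferase, had 184 ± 50.7 CPM in females and 324 ± 30.2 CPM in males (SD, n = 4 each; log2 0.84). The related gene Gm4952 passed at a low level, 1.60 and 2.98 CPM (log2 0.88). Keg1, the most abundant gene of the list, had 621 and 686 CPM and did not pass (log2 0.155). Of 19 genes of mitochondrial beta-oxidation 6 were higher in males and 4 in females, with a median of 0.15. Among the genes of that list, Crot, a carnitine octanoyltransferase of peroxisomes rather than mitochondria, stood at 1.33, Acads, the short-chain acyl-CoA dehydrogenase, at 0.80, Hadh at 0.53, and Hadha, a subunit of the trifunctional protein, at -0.52. Of 13 thioesterases and coenzyme A hydrolases, which undo acyl activation, 4 were higher in males and 4 in females, with a median of -0.11. Acot3 (-2.06) and Acot7 (-1.76) were higher in females, and Nudt19 (1.69) and Acot12 (1.10) in males. The members' own counts were 3 higher in males, 1 in females and 1 not called, with a median of 0.48.

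**Figure D3:**
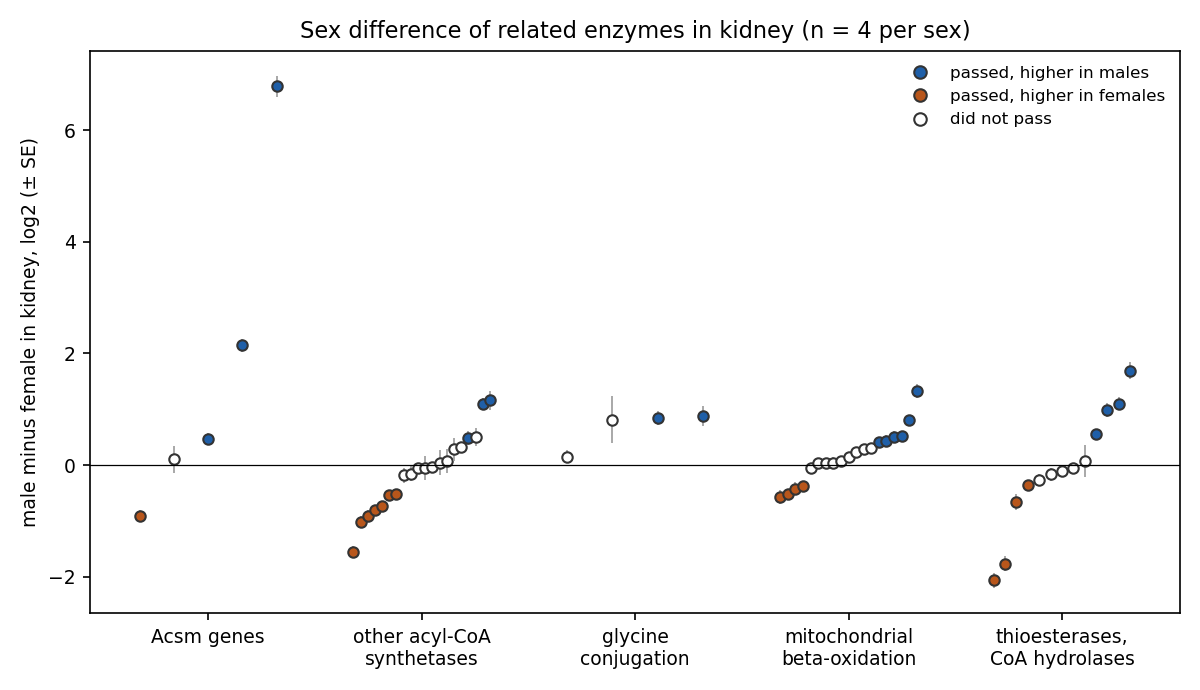
Male minus female log2 difference (± SE) in kidney for each gene of the Acsm family and of 4 lists of related enzymes, 1 point per gene, ordered by value within a list, filled where edgeR's adjusted p was under 0.05. Acsm3 at 6.78 and Acsm2 at 2.15 lie above every gene of the other lists, whose largest value is 1.69 (Nudt19).

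For each member with a kidney mean of at least 1 CPM, the genes with the most alike pattern over the 8 kidneys were found among 15977 genes, by the root mean square difference of mean-centred log2 CPM. For Acsm1 they were Slc16a4 (0.104), Zfp704 (0.106) and Afm (0.109), and for Acsm2 Tmigd1 (0.099), Pde6a (0.103) and Ces2c (0.155). For Acsm5 they were Coa6 (0.054), Acp6 (0.067) and Eci2 (0.070). The nearest to Acsm3 were further away, at 0.557 for Pzp, 0.680 for Cyp2j13 and 0.745 for Ugt2b37. Pzp averaged 1.89 ± 0.26 CPM in the females and 174 ± 48.0 CPM in the males (SD, n = 4 each), and Cyp2j13 had 2.32 ± 0.20 and 306 ± 18.9 CPM. Their male excess follows from choosing them by likeness to Acsm3 over these same kidneys and is no separate result. Cyp2j13 is also in the list of genes with a known male excess.

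With age, the kidney levels of the 4 abundant members were lower at 86 weeks. The age change was -1.24 ± 0.15 for Acsm3, -0.37 ± 0.11 for Acsm2, -0.29 ± 0.11 for Acsm1 and -0.28 ± 0.10 for Acsm5 (log2, SE), while that of Acsm4 was -0.02 ± 0.25. Lower estimates with age were not particular to the family. Among the related enzymes named above, Glyat was at -0.37, Nudt19 at -0.44 and Crot at -0.605 (log2). Only Acsf2 (0.06), Gm4952 (0.465) and Acot7 (0.065) of those enzymes had an estimate above 0. Acsm3 changed by -1.24 ± 0.21 in males and -1.24 ± 0.23 in females, to 0.424 and 0.422 times the younger level. Within each sex, both older kidneys lay below both younger ones for Acsm3 and for Acsm2. Of the 5 members 1, Acsm3, passed edgeR's threshold for age, against 0.112% of genes, but this contrast entered the choice of the family and nothing is read from the count. It was not called without a filter on low counts or without sex as a covariate, and DESeq2 called Acsm2 as well.

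Levels of Acsm1, Acsm2, Acsm3 and Acsm5 were higher in kidney than in the other tissues. For Acsm3 the gap was wide in males and narrow in females, whose means were 4.54 CPM in kidney, 0.729 CPM in left ventricle and 1.02 CPM in skeletal muscle, and 2.69, 0.707 and 1.085 CPM in the females of 86 weeks. Fitted over all 24 libraries, kidney was higher than left ventricle by 9.55 ± 0.38 for Acsm2, 7.41 ± 0.19 for Acsm1, 5.38 ± 0.20 for Acsm3 and 3.68 ± 0.11 for Acsm5, and higher than skeletal muscle by 8.81 ± 0.37, 7.17 ± 0.19, 4.47 ± 0.19 and 5.67 ± 0.12 (log2, SE). For Acsm4 the differences were -0.08 ± 0.19 and -0.48 ± 0.19, with TMM factors set over all 24 libraries. With factors set within each tissue, as for the CPM values given here, its mean was 0.638 CPM in kidney, 0.565 in left ventricle and 0.596 in skeletal muscle, so the sign for Acsm4 depends on the scaling and no direction is given. These are averages over females and males, and both comparisons share the kidney libraries. Levels were set against those of 1135 olfactory receptor genes, a measure of background counts, whose 95th percentile was 0.298 CPM per exon kilobase in kidney, 0.290 in left ventricle and 0.272 in skeletal muscle. Acsm4 had a mean of 0.297 in kidney, 0.263 in left ventricle and 0.277 in skeletal muscle on that scale, close to the background percentile in each. Acsm3 in female kidney remained above it in 4 of 4 libraries.

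Single libraries were set against the 95th percentile of the olfactory receptor genes in the same library, which differs from the tissue value above. Outside kidney, the only member above its own library's percentile in all 8 libraries of a tissue was Acsm5 in left ventricle. Its ventricles held 3.38, 2.82, 5.20 and 6.20 CPM at 16.5 weeks and 9.02, 7.32, 11.9 and 8.69 CPM at 86 weeks, females before males. All 4 older ventricles lay above all 4 younger ones. The means were 4.4 ± 1.57 and 9.24 ± 1.93 CPM (SD, n = 4 each), an age change of 1.12 ± 0.16 (log2, SE), with 1.40 ± 0.22 in females and 0.86 ± 0.21 in males. This was the opposite direction to the kidney change of Acsm5. Of the 5 members 1, Acsm5, passed edgeR's threshold for age in left ventricle, against 0.0741% of genes, and 0 of 5 passed in skeletal muscle, against 0.0183%, counts from which nothing is read since the contrast entered the choice. Acsm5 was not called without a filter on low counts or without sex as a covariate. Cardiomyocyte markers, 6 genes, summed to 56359 to 65155 CPM in the younger and 46742 to 63687 CPM in the older ventricles, and adipocyte markers to 218 to 259 and 201 to 269 CPM, ranges that overlapped. In skeletal muscle Acsm5 had 1.28 ± 0.28 CPM (SD, n = 8), and 4 of 8 libraries exceeded the background percentile of their own library.

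**Figure D4:**
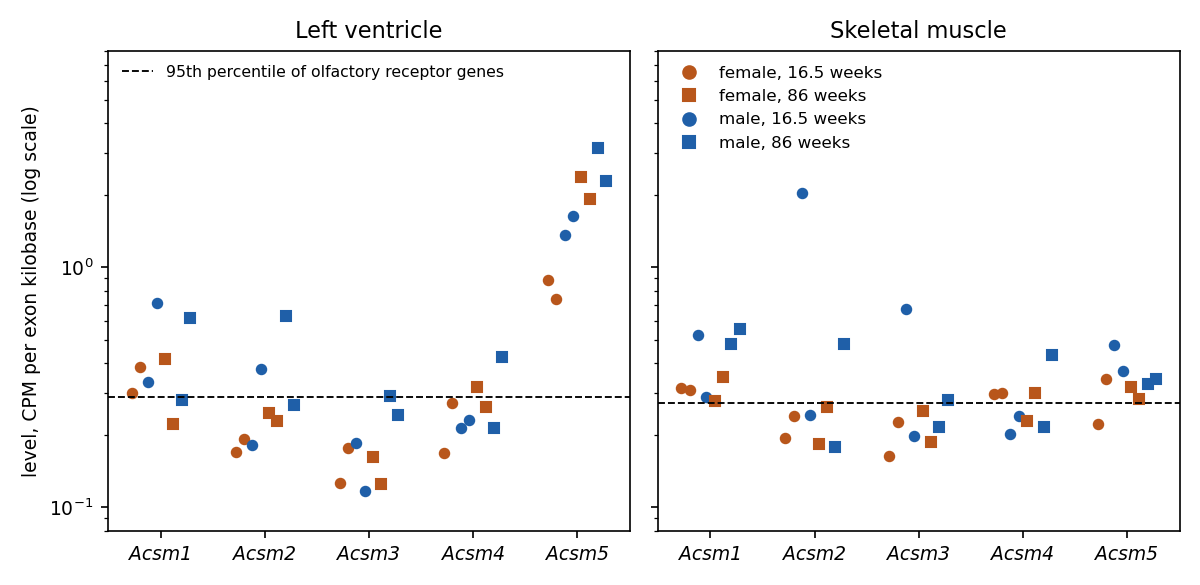
Level of each Acsm gene in left ventricle and skeletal muscle, in CPM per exon kilobase on a log axis, 1 point per library (8 per tissue), coloured by sex and shaped by age, with the 95th percentile of 1135 olfactory receptor genes as a dashed line. Acsm5 in left ventricle lies above the line in 8 of 8 libraries, and single male libraries stand out for Acsm2.

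Single male libraries of heart and muscle carried more Acsm2 than the rest, together with other kidney transcripts. In skeletal muscle Acsm2 had 15.2 CPM in 16.5-week replicate 19 and 3.57 CPM in 86-week replicate 17, against 1.32 to 1.945 CPM in the other 6. In left ventricle it had 4.65 CPM in 86-week replicate 14 and 2.80 CPM in 16.5-week replicate 20, against 1.27 to 1.99 CPM in the other 6. Kap, the kidney androgen-regulated protein, was at 18.9, 2.09, 5.57 and 7.39 CPM in these 4 libraries and at 0.0437 to 0.731 CPM in the other 12. Lrp2, the megalin gene of the proximal tubule, was at 30.0, 13.1, 10.4 and 36.5 CPM there and between 3.57 and 6.335 CPM in the rest. Acsm3 reached 3.31 CPM in the muscle of replicate 19, against 0.811 to 1.39 CPM in the other 7 muscles. Among the 8 ventricles it was highest in 86-week replicate 14, at 1.44 CPM. It was lowest in 16.5-week replicate 20, at 0.576 CPM, so it did not rise in each library that held kidney transcripts. The part of these transcripts in the levels of the Acsm genes outside kidney was not tested. Without the 4 libraries, which held the most Acsm2 of their tissue, kidney exceeded left ventricle by 10.01 and skeletal muscle by 9.61 for Acsm2 (log2).

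In left ventricle and in skeletal muscle 0 of 5 members passed for sex, against 0.871% and 1.36% of genes. DESeq2 and limma-voom also called 0 of 5. At an unadjusted p under 0.05 the count was 2 of 5 in each tissue. Of all genes, 2273 of 44546 in left ventricle and 4207 of 43711 in skeletal muscle were under that value. Acsm5 in left ventricle had the largest ratio of estimate to error, 0.60 ± 0.16 (log2, SE; adjusted p = 0.116), and was called without 86-week replicate 17, at 0.74 (adjusted p = 0.0237), and when all 24 libraries were fitted together, at 0.64 (adjusted p = 0.0186). Without both ventricles that held kidney transcripts it was 0.42 (adjusted p = 0.831). In skeletal muscle the largest estimate was that of Acsm2, 1.49 ± 0.56 (log2, SE; adjusted p = 0.362), and it rested on replicate 19, since without that library it was 0.38 (adjusted p = 0.763), and without both libraries with kidney transcripts described above -0.08 (adjusted p = 0.954).

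Whether the sex difference itself differed between tissues was tested in the fit of all 24 libraries. The difference of Acsm3 in kidney exceeded that in left ventricle by 6.33 ± 0.38 and that in skeletal muscle by 6.18 ± 0.36 (log2, SE; edgeR adjusted p = 1.33e-10 and 1.12e-10). Outside kidney, however, Acsm3 was near background. It averaged 0.179 CPM per exon kilobase in left ventricle and 0.275 in skeletal muscle, against olfactory receptor percentiles of 0.290 and 0.272. In each tissue 1 of 8 libraries exceeded its own percentile. A sex difference could hardly be seen at such levels, so these values largely restate the kidney difference. For Acsm1 the kidney difference was lower by 1.45 ± 0.33 and 1.40 ± 0.33 (edgeR adjusted p = 0.0190 and 0.0206). These 2 of 5 members passed in each comparison, against 1.35% and 1.92% of genes. Acsm2 did not pass, with 1.37 ± 0.56 and 0.75 ± 0.55 (edgeR adjusted p = 0.457 and 0.763), nor did Acsm4 and Acsm5. Acsm1 was not called against left ventricle without 86-week replicates 12 or 17 or 16.5-week replicates 14, 15 or 20, with adjusted p-values of 0.0716 to 0.244, or against skeletal muscle without 86-week replicates 11 or 12 or 16.5-week replicates 14, 15 or 19, with 0.0544 to 0.133. Acsm2 passed against left ventricle without 16.5-week replicate 20, at 1.72 (adjusted p = 0.0323), and against skeletal muscle without 16.5-week replicate 19, at 1.84 (adjusted p = 0.0172). The 4 libraries of heart and muscle that held kidney transcripts were also left out, an alternative chosen after the data were seen. These libraries were male and held the most Acsm2 of their tissue. Leaving them out thus raises the kidney sex difference of Acsm2 relative to that tissue by construction. The estimates were then 2.1 and 2.28 for Acsm2, 6.30 and 6.82 for Acsm3, and -1.33 and -1.11 for Acsm1 (log2).

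**Figure D5:**
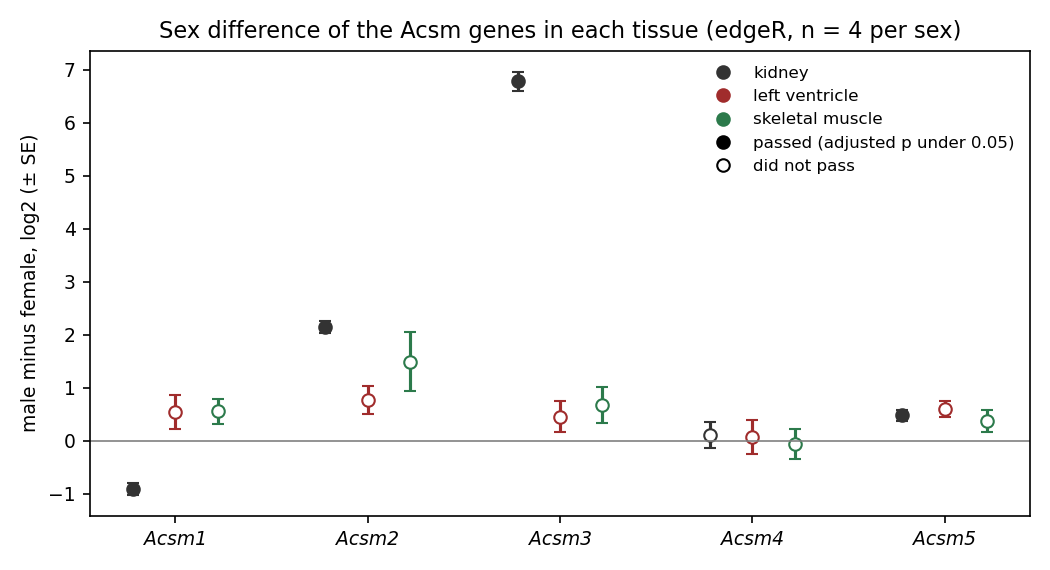
Male minus female log2 difference (± SE, n = 4 per sex) of each Acsm gene in kidney, left ventricle and skeletal muscle, filled where edgeR's adjusted p was under 0.05. The filled points are those of Acsm1, Acsm2, Acsm3 and Acsm5 in kidney, with Acsm1 below 0.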

How the data were processed

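Ribosome-depleted total RNA of left ventricle, skeletal muscle and kidney was sequenced from 8 mice, identified by the titles. STAR 2.7.6a, StringTie 2.1.1 and the build GRCm38.p6 are named in the submitters' processing notes. The authors deposited whole-number counts per gene for 24 libraries, and the annotation release, the strand setting and the step that gave counts are not given in the sources used here. GENCODE release M21 held 54349 of the 55401 gene identifiers and supplied coordinates and merged exon lengths.

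The members and gene lists were chosen with earlier results of these data known. Within each tissue, genes were filtered by filterByExpr on age and sex groups, normalised by TMM and tested with the quasi-likelihood F-test of edgeR 4.0.16, run in R 4.3.3, with additive terms for sex and age, leaving 5 residual degrees of freedom. P-values were two-sided, adjusted by Benjamini-Hochberg over all genes tested, with a threshold of 0.05. All 5 members passed the filter in each tissue. The interaction came from a fit with that term, and tissue differences and the difference of sex differences from a fit of all 24 libraries. SE is the log2 change over the square root of F. CPM were computed from counts and TMM-normalised library sizes. P-values of the fits within a tissue measure the spread between mice. The main fit of all 24 libraries held no mouse term, so its p-values treat libraries of the same mouse as independent. Titles with the same identifier pair the libraries across tissues, and deviations of the same mouse correlated between -0.184 and 0.309. The script was tested on simulated data. Alternatives were DESeq2 1.42.0, limma-voom (limma 3.58.1), other normalisation and filters, no covariate, a single fit, each mouse left out, and the mouse as a block. Leaving out the 4 heart and muscle libraries with Kap above 1 CPM was chosen after the data were seen. Named genes were all members, up to 4 genes per pathway list called for sex in kidney (smallest p), the 3 most alike genes per member, neighbours within 100 kb, and the markers Kap, Lrp2 and Umod. Slc7a13, Slc22a7, Slc5a10 and Keg1 were named after their values were seen.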

Additional observations from a re-analysis of the deposited data

Results flagged for a closer look

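Acsm2 stood apart from the other 3 libraries of its age group at 15.2 CPM in skeletal muscle of 16.5-week replicate 19, at 2.80 CPM in left ventricle of 16.5-week replicate 20 and at 4.65 CPM in left ventricle of 86-week replicate 14. The first of these also stood apart from the other 3 male muscles. In the same muscle library Acsm3 (3.31 CPM) and Acsm1 (1.15 CPM) stood apart from their age group. These 3 libraries held Kap above 1 CPM, as did skeletal muscle of 86-week replicate 17, and the part of kidney transcripts was not tested. Acsm4, at background level, stood apart at 0.910 CPM in left ventricle of 86-week replicate 17 and at 0.931 CPM in skeletal muscle of 86-week replicate 17, both among males, and at 0.495 CPM in skeletal muscle of 86-week replicate 11 among females. In all, 9 of 60 groups of 4 libraries held such a library by Dixon's criterion. Each library entered both an age group and a sex group, and the age groups mixed the sexes. The criterion's rate of about 1 in 20, which is for independent samples, therefore does not apply to this count.

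The sex difference itself differed between tissues for Acsm3, by 6.33 between kidney and left ventricle and by 6.18 between kidney and skeletal muscle (log2), and for Acsm1, by -1.45 and -1.40 (edgeR quasi-likelihood test with Benjamini-Hochberg adjustment). Acsm3 was near background outside kidney. The Acsm1 call was lost against either tissue when certain single mice were left out, as given above.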

How the results depend on the processing

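The count of members called for sex in kidney was 4 under all 15 alternatives, with Acsm4 not tested at 1 CPM in 4 libraries. For left ventricle it was 0 to 1 when each library was left out, and 1 in the single fit of 24 libraries. Members passing for age in kidney numbered 2 with DESeq2 and 0 without a filter or without a covariate, and in left ventricle 0 under both of the latter. Without a covariate the sex difference enters the residual spread. Leaving out 1 mouse gave 1 to 2 members whose sex difference differed from left ventricle and 1 to 2 from skeletal muscle. With the mouse as a replicate block, which pairs the tissues, both counts were 2, and the block, run for the comparisons between tissues, changed no call of a member. The median tissue difference of the members moved from 5.38 to 6.29 (left ventricle) and from 5.67 to 6.21 (skeletal muscle) with a minimum of 1 CPM in 4 libraries, where Acsm4 is no longer tested.

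Signs reversed only for values that did not pass, most of them near 0. The kidney interaction of Acsm3 was -0.053 with limma-voom, -0.027 without a filter and -0.030 at 1 CPM, and ranged from -0.36 to 0.30 when libraries were left out (-0.12, -0.27, -0.36 and -0.12 without 86-week replicates 12 and 14 and 16.5-week replicates 15 and 20). Acsm4 reversed for sex to -0.168 and -0.023 in left ventricle (range -0.168 to 0.246), 0.056 and 0.041 in skeletal muscle (range -0.390 to 0.056), -0.039 in kidney relative to proximal tubule markers, and -0.108, -0.201, -0.144 and -0.052 for kidney against left ventricle (range -0.201 to 0.329) when mice were left out. Acsm5 reversed to 0.043 there (range -0.271 to 0.043) without 86-week replicate 12. With the libraries that held kidney transcripts left out, Acsm4 reversed to -0.108 and Acsm5 to 0.093 for kidney against left ventricle, and Acsm2 from 1.49 to -0.081 for sex in skeletal muscle.

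Counts over all genes moved more. For age in kidney 50 genes became 238 with DESeq2, 1 without a filter and 0 without a covariate, and for sex in left ventricle 388 became 18 at 1 CPM, 22 with limma-voom and 725 without a filter. Without the libraries that held kidney transcripts, all from males, the counts for sex were 48 in left ventricle and 166 in skeletal muscle, from fewer libraries. For sex in skeletal muscle 594 became 297 at 1 CPM and 1090 in the single fit. For the interaction 11, 7 and 0 genes in kidney, left ventricle and skeletal muscle became 34, 12 and 64 with DESeq2 and 5, 1 and 1 with limma-voom. In skeletal muscle 2891 genes had an unadjusted p under 0.05 for the interaction. With 4 libraries a group and 2 per age and sex, differences of members near 1 CPM outside kidney were not detectable unless large.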
